A study of Mus musculus with 12 samples.

Results

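Hepatic messenger RNA of 33 genes of fatty acid and triglyceride synthesis was compared between male and female mice given a glucocorticoid or its vehicle. The genes were chosen by name from the array's gene annotation: enzymes that supply carbon, acetyl-CoA and NADPH, enzymes of synthesis, elongation, desaturation and activation of fatty acids, enzymes of esterification, and 4 regulators. Pnpla3, which encodes an acylhydrolase, was placed with the enzymes of esterification. All 33 were on the array and all 33 were among the 19340 genes tested. Liver RNA came from adrenalectomized C57BL/6 mice aged 11 weeks, so every group, controls included, lacked its own adrenal corticosterone. Males and females, the latter in diestrus 1, received phosphate buffered saline (vehicle) or dexamethasone, a synthetic agonist of the glucocorticoid receptor, at 1 mg/kg into the peritoneum, and livers were taken 6 h later. There were 4 groups of 3 animals with 1 array each: male vehicle, male dexamethasone, female vehicle and female dexamethasone. Only 1 dose and 1 time were sampled, whole liver was used, and no group had intact adrenals.

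In the liver, citrate exported from mitochondria is cleaved to cytosolic acetyl-CoA, which is carboxylated to malonyl-CoA and built into palmitate. Palmitate is then elongated, desaturated and activated to acyl-CoA before it is esterified to glycerol phosphate to give phosphatidate, diglyceride and triglyceride. The transcription factors encoded by Srebf1 (responsive to insulin and sterols) and Mlxipl (responsive to carbohydrate) are known to drive many of these genes, and glucocorticoids are known to alter hepatic lipid handling together with insulin.

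Levels are given as scaled log2 signal, that is, the log2 of a probe's signal minus the log2 of the 75th percentile of its array, so 0 is the level of that percentile. A level of one probe is not comparable with that of another probe. Differences were tested with limma, with Benjamini-Hochberg adjustment over the 19340 genes, and a gene was said to rise or fall where its adjusted p was under 0.05. The 75th percentile of the signal lay between 578 and 1251 on the 12 arrays, and 65.7% to 72.2% of the non-control spots were well above background. Arrays of 1 group correlated at 0.984 to 0.994 over the genes tested. The arrays lay on 3 slides, and each slide held at least 3 of the groups. Slide 2 held no male dexamethasone array and slide 3 no female dexamethasone array. Under dexamethasone the sexes therefore met within a slide on slide 1 alone, and sex and slide cannot be fully told apart there. All 3 male vehicle arrays occupied position 1 of their slide, so that position and that group cannot be told apart. The hepatocyte marker Alb, serum albumin, was well above background on all 12 arrays. The number of arrays limits the precision of every value below.

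In males, 2 of the 33 genes rose with dexamethasone and 9 fell, which is 33.3% of them, where 22.5% of all genes tested were called. By direction, 6.06% rose against 10.4% of all genes, and 27.3% fell against 12.1% of all genes. In females 2 rose and 7 fell, 27.3% of the 33 against 13.7% of all genes, with 6.79% of all genes higher and 6.88% lower. The median log2 difference of the 33 genes was -0.32 in males and -0.47 in females, while that of all genes tested was 0.01 and 0.02. Acly, Acaca, Fasn, Elovl6, Acsl3 and Srebf1 fell in both sexes, and Elovl3 and Agpat3 rose in both. Scd2, Mogat1 and Mid1ip1 passed the test, all lower, in males and not in females. Slc25a1 passed it, lower, in females and not in males. With normexp background correction in place of the scanner's own, the calls of Acly, Acaca, Fasn, Acsl3 and Srebf1 stood in males and those of Acly, Fasn, Elovl6, Acsl3 and Elovl3 in females, 5 in each. Without male vehicle array 1 or 2 the count in males was 7 of the 33. All genes called were 2319 in males without male vehicle array 1, and in females 1505, 1747 and 1696 without female vehicle array 1, female vehicle array 3 and female dexamethasone array 2. For the difference between the sexes in dexamethasone response, limma called 0 of the 33 and 0.00517% of all genes. Its unadjusted p was under 0.05 for 2 of the 33 and for 1033 of all 19340 genes.

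**Figure D1:**
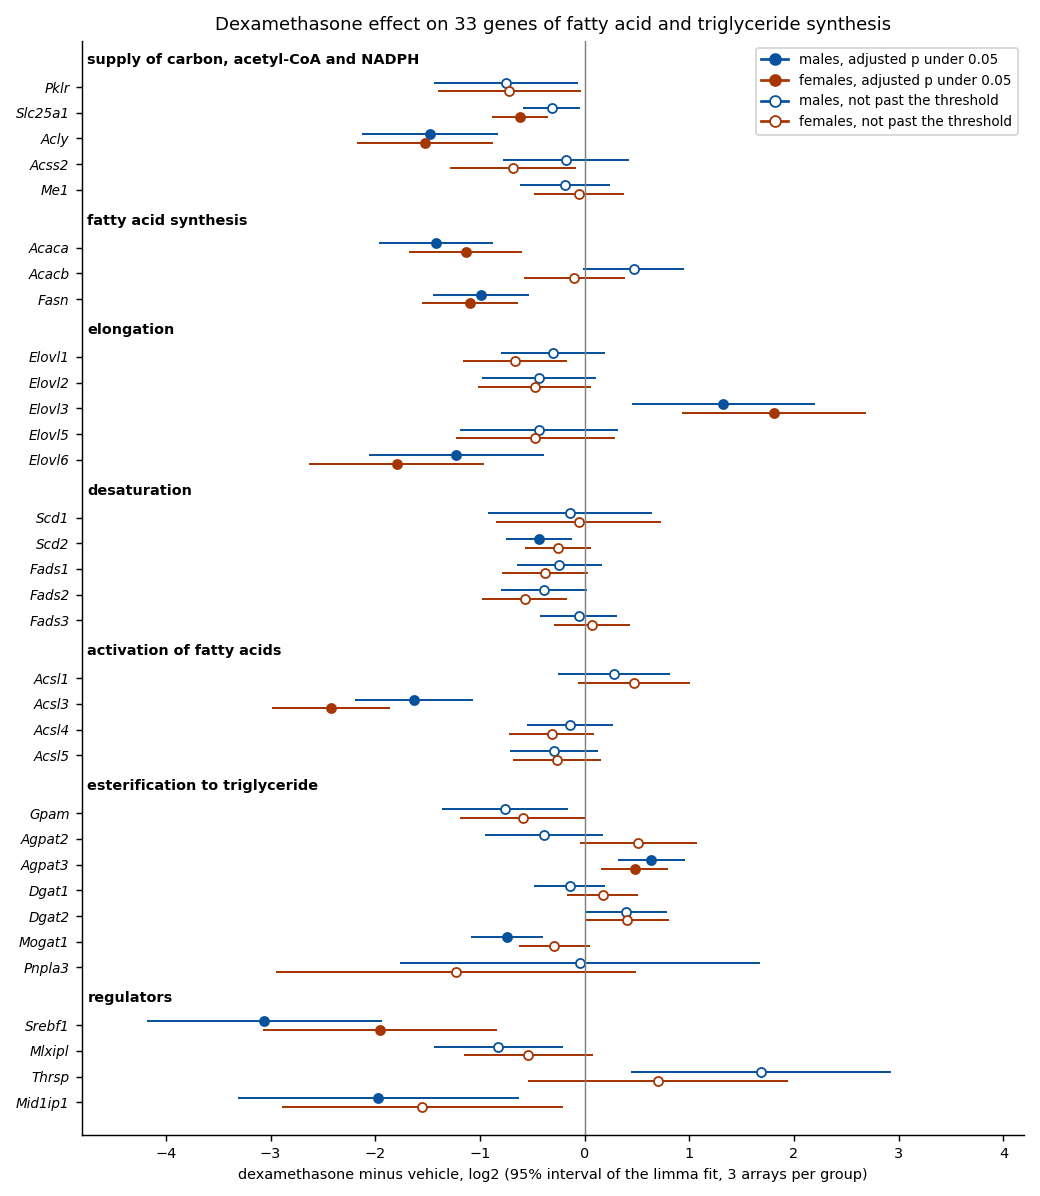
Dexamethasone minus vehicle in log2 units (horizontal axis) for the 33 genes, grouped by role, in males (blue) and females (orange-brown); points are limma estimates from 3 arrays per group, lines their 95% intervals, and filled points passed an adjusted p of 0.05. The points filled in both sexes are those of the 6 genes that fell in both and the 2 that rose in both.

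The groups of arrays were also compared without a model. In males 17 of the 33 genes had groups that overlapped, and in females 15. Of the 33 genes, 4 had all male dexamethasone arrays above the male vehicle arrays, as 22% of all genes tested did, and 12 had them all below, as 21.5% did. In total 43.5% of all genes did not overlap in males. In females 4 genes lay wholly above, against 15.5% of all genes, and 14 wholly below, against 15.4%, with 30.9% of all genes not overlapping.

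Promoter sequence was matched for 27 of the 33 genes in RefSeq (build GRCm38.p6), as 36 windows of 250 bases before an annotated start. Elovl3, Scd1, Scd2, Fads1, Dgat1 and Dgat2 had no entry. Each window was searched on both strands for 4 motifs. The CCAAT box, bound by NF-Y and searched as those letters, was in 18 of the 36 windows (50%) and in 33.8% of the 32851 windows of all genes. A sterol regulatory element, TCACNCCAC, was in 2 windows (5.6%), those of Acsl1 and Mlxipl, against 1.1% of all windows. An E-box, searched as CACGTG, was in 3 (8.3%; Elovl5, Mlxipl and Slc25a1), against 6.0%. The core hexamer of glucocorticoid response elements, searched as AGAACA, was in 4 (11.1%; Acaca, Acsl5, Mid1ip1 and Mlxipl), against 16.1%. These counts are matches of letters and not measurements of binding. Of the 6 genes that fell in both sexes, Acaca, Fasn, Acsl3 and Srebf1 had a match, and a window of each is given below because these 4 genes fell in both sexes. Capitals mark the CCAAT box in Srebf1, Fasn and Acsl3, on either strand, and the glucocorticoid hexamer in Acaca. In Fasn the capitals cover 3 CCAAT matches, of which 2 overlap. The Srebf1 window is 1 of 3 for that gene; another of the 3 also held a CCAAT box.
Srebf1, chr11:60210472-60210721, minus strand: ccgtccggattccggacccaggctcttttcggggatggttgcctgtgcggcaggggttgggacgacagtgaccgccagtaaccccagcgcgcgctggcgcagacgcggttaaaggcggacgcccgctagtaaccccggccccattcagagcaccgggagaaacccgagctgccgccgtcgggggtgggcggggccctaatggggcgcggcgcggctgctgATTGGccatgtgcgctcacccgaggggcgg
Acaca, chr11:84195188-84195437, plus strand: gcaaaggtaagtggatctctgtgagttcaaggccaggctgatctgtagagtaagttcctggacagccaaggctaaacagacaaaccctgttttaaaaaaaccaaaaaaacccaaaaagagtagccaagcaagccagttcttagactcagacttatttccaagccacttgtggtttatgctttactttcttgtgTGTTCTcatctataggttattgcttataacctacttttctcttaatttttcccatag
Fasn, chr11:120824548-120824797, minus strand: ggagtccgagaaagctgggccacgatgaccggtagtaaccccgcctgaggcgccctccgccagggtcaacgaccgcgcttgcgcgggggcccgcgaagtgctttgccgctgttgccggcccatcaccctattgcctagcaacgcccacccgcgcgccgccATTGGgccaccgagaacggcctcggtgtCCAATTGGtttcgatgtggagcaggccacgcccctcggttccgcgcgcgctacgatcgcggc
Acsl3, chr1:78657575-78657824, plus strand: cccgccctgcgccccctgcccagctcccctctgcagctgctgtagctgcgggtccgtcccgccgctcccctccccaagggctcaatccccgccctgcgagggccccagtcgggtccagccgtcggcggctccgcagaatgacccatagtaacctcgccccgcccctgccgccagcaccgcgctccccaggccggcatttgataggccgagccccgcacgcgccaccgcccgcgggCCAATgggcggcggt

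Of the 4 regulators, 2 fell in males (50%, against 22.5% of all genes called) and 1 in females (25%, against 13.7%). Srebf1, which encodes the lipogenic transcription factor of the SREBP family, was measured by a probe at chr11:60281270-60281329 on the minus strand of build mm7. Its scaled log2 signal was 6.26, 6.62 and 6.49 on the male vehicle arrays and 3.46, 3.48 and 3.25 on the male dexamethasone arrays. The female values were 6.68, 6.99 and 6.77 under vehicle and 5.82, 5.45 and 3.29 under dexamethasone. The male groups were more than 2 log2 units apart with little spread inside either group. In females all dexamethasone arrays were below all vehicle arrays, but array 3 was far below arrays 1 and 2 and at the level of the males. Srebf1 fell by 3.06 on the log2 scale in males (SE 0.50, adjusted p = 0.00224), an 8.33-fold lower level. In females it fell by 1.96 (SE 0.50, adjusted p = 0.0276), a 3.88-fold lower level. The fall in males kept its call under all 19 alternative settings. The call in females was lost without any 1 of the 3 female vehicle arrays, with adjusted p between 0.0667 and 0.07. It was also lost with the slide as a block, where the adjusted p was 0.0741.

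Mid1ip1, whose product promotes polymerization of acetyl-CoA carboxylase, went the same way. Its scaled log2 signal was 4.39, 4.66 and 4.95 on the male vehicle arrays and 3.47, 2.23 and 2.39 on the male dexamethasone arrays. It was 4.94, 5.58 and 5.58 on the female vehicle arrays and 4.59, 4.73 and 2.12 on the female dexamethasone arrays. The groups did not overlap in either sex, and female dexamethasone array 3 was again the lowest of its group. Mid1ip1 fell by 1.97 in males (SE 0.60, adjusted p = 0.0392), and in females its log2 difference was -1.55 (SE 0.60, adjusted p = 0.117). The call in males was lost without any 1 of the male vehicle arrays, male dexamethasone array 2 or 3, or female vehicle array 3, with adjusted p from 0.052 to 0.121. It was also lost with the slide as a block (adjusted p = 0.0541).

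Mlxipl, which encodes the carbohydrate-response transcription factor ChREBP, was 5.27, 5.35 and 5.22 under vehicle and 4.57, 4.49 and 4.30 under dexamethasone in males. The male groups did not overlap, but the difference of -0.83 (SE 0.27) missed the threshold with an adjusted p of 0.0526. In females the values were 5.05, 5.29 and 5.35 under vehicle and 4.93, 5.23 and 3.91 under dexamethasone, which overlapped. A dimmer probe of the same gene gave -1.11 in males (adjusted p = 0.00453) and -0.80 in females (adjusted p = 0.032) when every probe was fitted on its own. The call for Mlxipl therefore depended on the probe. Without female dexamethasone array 2 or 3, the brighter probe passed in males, with adjusted p of 0.0311 and 0.0022, and with the slide as a block its adjusted p was 0.0483.

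Thrsp, a thyroid hormone and carbohydrate responsive gene related to Mid1ip1, did not follow the other regulators. It was 4.99, 6.11 and 7.05 on the male vehicle arrays and 7.89, 8.31 and 6.98 on the male dexamethasone arrays. The wide spread of the male vehicle arrays made the groups overlap, and the log2 difference of 1.68 (SE 0.56) missed the threshold with an adjusted p of 0.0529. It passed when array 3 of the male vehicle, male dexamethasone or female dexamethasone group was left out, with adjusted p from 0.0256 to 0.0427. In females the difference was 0.70 (SE 0.56, adjusted p = 0.463).

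**Figure D2:**
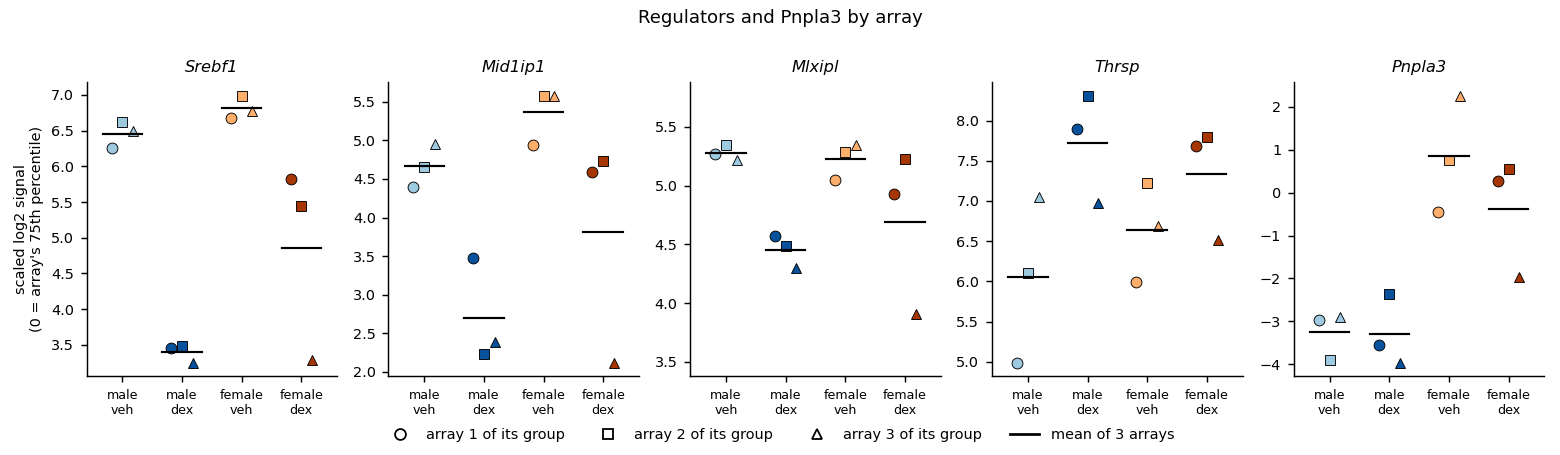
Scaled log2 signal (vertical axis, 0 is the array's 75th percentile) of the 4 regulators and Pnpla3 on each of the 12 arrays; symbols give the array's number within its group and the bar the mean of 3 arrays. Srebf1 under dexamethasone is 3.25 to 3.48 in males, and in females 5.82 and 5.45 on arrays 1 and 2 and 3.29 on array 3.

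Female dexamethasone array 3 stood apart for several of these genes, and it was singled out after its values were seen. It gave the lowest value of its group for 15 of the 33 genes (45.5%), where 35.7% of all genes tested were lowest on it. The widest spans within that group were those of Mid1ip1 at 2.62 log2 units, Srebf1 at 2.53 and Pnpla3 at 2.50. This array had the lowest Srebf1 value of its group, so leaving it out makes the female fall smaller by selection. The adjusted p values that follow without it are therefore a description and not a test of a sex difference. Without this array Srebf1 fell by 1.18 in females (SE 0.17, adjusted p = 0.00435). The estimated response was then weaker in females than in males, by 1.88 log2 units (SE 0.23, adjusted p = 0.0233). With all 12 arrays that difference was 1.1 (95% interval -0.47 to 2.67, adjusted p = 1). The count of the 33 genes that differed between the sexes under dexamethasone went from 4 to 9 without this array. That of all genes tested went from 1123 to 1286. Srebf1 was then higher in females by 2.24 (adjusted p = 0.000202), Mid1ip1 by 1.97 (adjusted p = 0.0142) and Mlxipl by 0.63 (adjusted p = 0.0366). Pnpla3 and Agpat2 were then also higher in females, and Me1 lower. This array shared its slide with female dexamethasone array 1, and 72.2% of the spots of each were well above background.

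Among the enzymes that supply carbon, Acly, the ATP citrate lyase that makes cytosolic acetyl-CoA, fell in both sexes. Its probe lay at chr11:100586242-100586300 on the minus strand (mm7). The scaled log2 signal was 1.98, 1.52 and 1.97 in vehicle males and 0.40, 0.79 and -0.14 in dexamethasone males. Vehicle females had 2.26, 2.23 and 2.94 and dexamethasone females 1.1, 1.26 and 0.51. No dexamethasone array reached a vehicle array of its sex. Acly fell by 1.48 in males (SE 0.29, adjusted p = 0.00546) and by 1.52 in females (SE 0.29, adjusted p = 0.008). Both calls held under all 19 alternatives. Slc25a1, the mitochondrial citrate carrier, was 3.64, 3.73 and 3.65 in vehicle males and 3.32, 3.5 and 3.26 in dexamethasone males. Female arrays read 3.31, 3.49 and 3.51 under vehicle and 2.87, 2.69 and 2.90 under dexamethasone. The groups were apart in both sexes, by little in males. Slc25a1 fell by 0.62 in females (SE 0.12, adjusted p = 0.008), and the difference in males was -0.32 (SE 0.12, adjusted p = 0.0795). With quantile normalization Slc25a1 also passed in males (-0.42, adjusted p = 0.0221). With normexp background correction it passed in neither sex (adjusted p of 0.211 in males and 0.0675 in females). The remaining genes of this role were not past the threshold in either sex. Pklr, liver pyruvate kinase, differed by -0.75 in males and -0.72 in females (adjusted p of 0.105 and 0.152). Without male dexamethasone array 1 it passed in males (adjusted p = 0.027). Acss2, which makes acetyl-CoA from acetate, differed by -0.18 and -0.68, and Me1, the NADPH-producing malic enzyme, by -0.19 and -0.06. A second Me1 probe passed in males on its own (-0.41, adjusted p = 0.0376), and Acss2 passed in females with its probes averaged (adjusted p = 0.0494).

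Both enzymes of the committed route to palmitate fell. Acaca, the cytosolic acetyl-CoA carboxylase, was 1.08, 0.39 and 0.41 in vehicle males and -0.75, -0.52 and -1.1 in dexamethasone males. The female values were 1.03, 0.68 and 1.34 under vehicle and -0.30, -0.16 and 0.11 under dexamethasone. Every dexamethasone array was below every vehicle array, across the sexes as well. Acaca fell by 1.42 in males (SE 0.24, adjusted p = 0.00263) and by 1.14 in females (SE 0.24, adjusted p = 0.0123). All 4 of its probes gave lower values under dexamethasone in both sexes, and 3 of the 4 passed in each sex when fitted on their own. Fasn, fatty acid synthase, was 7.63, 7.28 and 7.63 in vehicle males and 6.63, 6.80 and 6.13 in dexamethasone males. Vehicle females had 7.72, 8.28 and 8.21 and dexamethasone females 7.06, 6.93 and 6.93. The groups did not overlap, and the female dexamethasone arrays were within 0.14 log2 units of each other. Fasn fell by 0.99 in males (SE 0.20, adjusted p = 0.00654) and by 1.1 in females (SE 0.20, adjusted p = 0.0071), which is a 1.99-fold and a 2.14-fold lower level. Its dimmer second probe gave larger falls, of 1.89 in males and 1.86 in females, so the size of the Fasn change depended on the probe. Acacb, the mitochondrial carboxylase whose malonyl-CoA restrains fatty acid oxidation, was not past the threshold. Its differences were 0.47 in males and -0.10 in females (adjusted p of 0.143 and 0.818).

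Of the 5 elongases, 1 fell and 1 rose in each sex (40%, against 22.5% of all genes called in males and 13.7% in females). Elovl6, which extends palmitate to stearate, was 4.13, 3.59 and 4.01 in vehicle males and 2.76, 3.25 and 2.03 in dexamethasone males. Female arrays read 3.93, 5.13 and 5.15 under vehicle and 2.58, 3.04 and 3.20 under dexamethasone. The groups did not overlap in either sex, although the male dexamethasone arrays were spread over more than 1 log2 unit. Elovl6 fell by 1.23 in males (SE 0.37, adjusted p = 0.0386) and by 1.80 in females (SE 0.37, adjusted p = 0.0115). The call in females held under all 19 alternatives. That in males was lost without any 1 of the male vehicle arrays, male dexamethasone array 1 or 3, or female dexamethasone array 2 (adjusted p from 0.0524 to 0.128).

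Elovl3, an elongase of saturated and monounsaturated very long chain fatty acids, moved the other way. It was 4.30, 4.65 and 4.49 in vehicle males and 6.17, 6.10 and 5.14 in dexamethasone males. The female values were -0.57, -0.63 and -1.34 under vehicle and 0.93, 1.76 and 0.19 under dexamethasone. Each dexamethasone group lay above its vehicle group, and all female arrays lay far below all male arrays. Elovl3 rose by 1.32 in males (SE 0.39, adjusted p = 0.0346), a 2.50-fold higher level. In females it rose by 1.81 (SE 0.39, adjusted p = 0.0139), a 3.5-fold higher level. The call in males was lost without any 1 of the male vehicle arrays or male dexamethasone array 1 or 2 (adjusted p from 0.0653 to 0.113), and that in females without female vehicle array 3 (adjusted p = 0.0505). With the slide as a block the adjusted p in males was 0.0559. Elovl1, Elovl2 and Elovl5, which act on very long chain or polyunsaturated fatty acids, were not past the threshold. Their differences were -0.30 to -0.44 in males and -0.47 to -0.67 in females. Elovl1 passed in females without female dexamethasone array 1 (adjusted p = 0.035).

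Of the 5 desaturases, 1 fell in males and 0 passed the test in females. That is 20% in males, near the 22.5% of all genes called, and 0% in females, against 13.7%. Scd2, a stearoyl-CoA desaturase, was -0.86, -1 and -1.07 in vehicle males and -1.46, -1.26 and -1.53 in dexamethasone males. It was -0.68, -0.34 and -0.68 in vehicle females and -0.87, -0.90 and -0.69 in dexamethasone females. The groups were apart in both sexes but by small steps. Scd2 fell by 0.44 in males (SE 0.14, adjusted p = 0.0425), and the difference in females was -0.25 (SE 0.14, adjusted p = 0.263). The male call was lost under 13 of 19 alternatives, among them leaving out any 1 of 9 arrays: the 3 male vehicle arrays, male dexamethasone arrays 1 and 3, female vehicle arrays 1 and 3, and female dexamethasone arrays 1 and 2 (adjusted p from 0.0508 to 0.154). With the slide as a block its adjusted p was 0.0803. Scd1, the main hepatic stearoyl-CoA desaturase, ranged from 6.12 to 7.71 over the 12 arrays. Its differences were -0.14 in males (95% interval -0.92 to 0.64) and -0.06 in females (95% interval -0.83 to 0.72). Fads1 and Fads2, the desaturases of polyunsaturated fatty acids, differed by -0.24 and -0.39 in males and by -0.38 and -0.57 in females. Fads3 differed by -0.06 and 0.07. None of these 4 genes was past the threshold, the closest being Fads2 in females (adjusted p = 0.0602), which passed without female dexamethasone array 3 (adjusted p = 0.0233).

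Of the 4 acyl-CoA synthetases, which activate fatty acids, Acsl3 alone passed the test, in both sexes. That is 25% of them in each sex, near the 22.5% of all genes called in males and against 13.7% in females. Acsl3, an isoform of the endoplasmic reticulum and lipid droplets, was measured at chr1:78923503-78923562 on the plus strand (mm7). It was 0.72, 0.70 and 0.21 in vehicle males and -1.21, -1.19 and -0.87 in dexamethasone males. Vehicle females had 1.22, 1.00 and 1.81 and dexamethasone females -0.64, -1.25 and -1.34. All 6 vehicle arrays were above 0 and all 6 dexamethasone arrays below it. Acsl3 fell by 1.63 in males (SE 0.25, adjusted p = 0.0017), a 3.1-fold lower level, and by 2.42 in females (SE 0.25, adjusted p = 0.00041), a 5.36-fold lower level. These calls held under all 19 alternatives. The difference between the sexes in this response, female minus male, was -0.79 log2 units (95% interval -1.58 to -0.003) and did not pass the test (adjusted p = 0.934). Acsl1, the major hepatic isoform, differed by 0.28 in males and 0.47 in females (adjusted p of 0.442 and 0.224). Its dimmer probes, fitted on their own, gave 0.75 and 0.87 in males and 1.05 and 1.16 in females. None of these passed (adjusted p in females of 0.0687 and 0.0513), and the size of the Acsl1 difference depended on the probe. Acsl4 and Acsl5 differed by -0.14 and -0.29 in males and by -0.32 and -0.26 in females, none past the threshold.

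**Figure D3:**
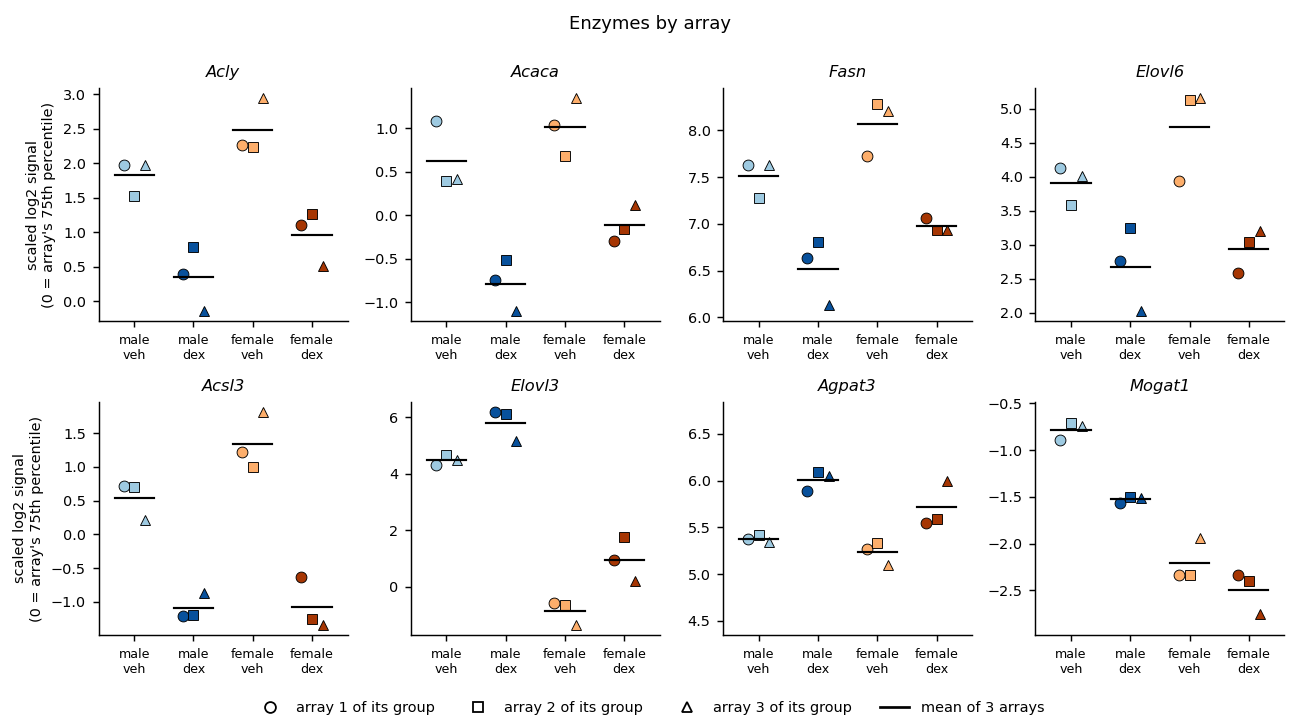
Scaled log2 signal (vertical axis, 0 is the array's 75th percentile) of 8 enzymes on each of the 12 arrays; symbols give the array's number within its group and the bar the mean of 3 arrays. Acly, Acaca, Fasn, Elovl6 and Acsl3 are lower under dexamethasone in both sexes, Elovl3 and Agpat3 are higher, and Elovl3 and Mogat1 are lower in females than in males.

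The 7 genes grouped under esterification included Pnpla3, whose product is an acylhydrolase. Of the 7, 1 rose and 1 fell in males (28.6%, against 22.5% of all genes). In females 1 rose and 0 fell (14.3%, against 13.7%), and these shares were near those of all genes. Agpat3, a lysophospholipid acyltransferase, was 5.37, 5.42 and 5.34 in vehicle males and 5.89, 6.09 and 6.05 in dexamethasone males. Female arrays read 5.27, 5.33 and 5.10 under vehicle and 5.55, 5.59 and 6.00 under dexamethasone. All 6 dexamethasone arrays were above all 6 vehicle arrays. Agpat3 rose by 0.63 in males (SE 0.14, adjusted p = 0.00957) and by 0.48 in females (SE 0.14, adjusted p = 0.0469). The female call was lost without any 1 of the 12 arrays (adjusted p from 0.0541 to 0.137) and with the slide as a block (0.128). The second probe of Agpat3 gave 0.20 and 0.40, not past the threshold in either sex, and with the probes averaged the adjusted p in males was 0.0574.

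Mogat1, a monoacylglycerol acyltransferase, was -0.89, -0.71 and -0.74 in vehicle males and -1.56, -1.50 and -1.51 in dexamethasone males. The female values were -2.34, -2.33 and -1.94 under vehicle and -2.33, -2.40 and -2.75 under dexamethasone. The male groups were tight and apart, while the female groups overlapped below them. Mogat1 fell by 0.74 in males (SE 0.15, adjusted p = 0.00633), and the difference in females was -0.29 (95% interval -0.62 to 0.04, adjusted p = 0.242). Its other probes fell by 0.95 and 1.06 in males. The response differed between the sexes by 0.45 log2 units, which was not past the threshold (adjusted p = 0.959).

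The remaining esterification genes were not past the threshold for dexamethasone in either sex. Gpam, the mitochondrial glycerol phosphate acyltransferase, differed by -0.76 in males and -0.59 in females (adjusted p of 0.0655 and 0.181). Without female vehicle array 1 or 2, Gpam passed in males, with adjusted p of 0.0394 at most. Agpat2, which makes phosphatidate, differed by -0.39 and 0.51. Dgat1 and Dgat2, which complete triglyceride, differed by -0.14 and 0.39 in males and by 0.17 and 0.41 in females. The groups of Dgat2 did not overlap in either sex. A dimmer Dgat2 probe passed in both when fitted on its own, with 0.69 in males (adjusted p = 0.0403) and 0.79 in females (adjusted p = 0.0342). Pnpla3, a lipid droplet acylhydrolase, differed by -0.04 in males and -1.23 in females (adjusted p of 0.977 and 0.337).

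Few of the 33 genes passed the test between the sexes. Under vehicle 3 differed (9.09%, where 1.97% of all genes were called), 1 higher in females and 2 lower, against 0.657% and 1.31% of all genes. Under dexamethasone 4 differed (12.1% against 5.81%), 1 higher and 3 lower, against 3.27% and 2.53%. With normexp background correction 2 and 1 differed, and with the slide as a block 1 under dexamethasone. The count under dexamethasone was 2 without male dexamethasone array 1 or female dexamethasone array 1 or 2, and 9 without female dexamethasone array 3. All genes called under vehicle were 155 and 175 without male vehicle array 2 and 3. Under dexamethasone they were 459 to 741 without any 1 of the male dexamethasone arrays or female dexamethasone array 1 or 2. Without female dexamethasone array 3 they were 1286. Under vehicle 10 of the 33 genes had all female arrays above all male arrays, against 8.28% of all genes, and 6 had them below, against 11.7%, with 20% of all genes not overlapping. Under dexamethasone 8 lay above, against 11.7%, and 4 below, against 14.8%, with 26.5% not overlapping. Elovl3, known as a male-predominant gene of mouse liver, had a mean of 4.48 ± 0.18 in vehicle males and -0.85 ± 0.43 in vehicle females (SD, n = 3). It was lower in females by 40.2-fold under vehicle (log2 difference -5.33, SE 0.39, adjusted p = 7.01e-05). Under dexamethasone it was lower by 28.8-fold (log2 difference -4.85, adjusted p = 0.000126). Within the 3 slides the vehicle difference was -4.93, -5.07 and -5.99. Mogat1 was lower in females by 1.43 under vehicle (SE 0.15, adjusted p = 0.000663) and by 0.97 under dexamethasone (SE 0.15, adjusted p = 0.00572). Its vehicle difference was -1.44, -1.60 and -1.23 within the slides. With the slide as a block the difference under dexamethasone was -0.85, with an adjusted p of 0.076. With normexp background correction neither Mogat1 difference passed (adjusted p of 0.282 under vehicle and 0.963 under dexamethasone).

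Pnpla3 was higher in vehicle females. It was -2.96, -3.89 and -2.90 in vehicle males and -0.44, 0.75 and 2.26 in vehicle females. Under dexamethasone it was -3.55, -2.36 and -3.96 in males and 0.28, 0.54 and -1.96 in females. Male and female arrays did not overlap under either treatment, and the female values spread widely. The difference under vehicle was 4.10 (SE 0.77, adjusted p = 0.0236), a 17.2-fold higher level in females. It was 4.75 without female vehicle array 1, 3.40 without female vehicle array 3 and 3.37 with normexp. That under dexamethasone was 2.91 (SE 0.77, adjusted p = 0.0535). The vehicle call was lost without male vehicle array 2 or 3 or female vehicle array 2 or 3 (adjusted p from 0.0603 to 0.123). Under dexamethasone the difference passed without female vehicle array 1 or 3 or female dexamethasone array 3, with adjusted p from 0.0177 to 0.0445.

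Under dexamethasone, Slc25a1 was lower in females, with a difference of -0.54 (SE 0.12, adjusted p = 0.0259), and Scd2 was higher by 0.60 (SE 0.14, adjusted p = 0.0322). Under vehicle their differences had the same signs, -0.24 and 0.41, and did not pass (adjusted p of 0.414 and 0.198). The Slc25a1 call was lost without male dexamethasone array 1 or 2 or female dexamethasone array 1 or 2 (adjusted p up to 0.0893). That of Scd2 was lost without male vehicle array 2, male dexamethasone array 1 or 3, or any female dexamethasone array (adjusted p up to 0.0945). With the slide as a block neither passed, with adjusted p of 0.173 and 0.171. Me1 had all female arrays below all male arrays under both treatments, at -0.83 and -0.70, but missed the threshold (adjusted p of 0.0571 and 0.0588). Without female dexamethasone array 3 it passed in both comparisons (adjusted p of 0.0374 and 0.0286). Fads1 and Fads2 lay above the males on all female arrays under both treatments, with differences of 0.51 to 0.70 that did not pass.

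Other genes of the pathway, which were not among the 33, were counted from a list of 45, of which 42 were tested. In males 5 rose and 5 fell, and in females 4 rose and 6 fell, which is 23.8% of the 42 in each sex. In males that is about the 22.5% of all genes called, and in females 13.7% of all genes were called. Insig2, Lpin1 and Gpat4 rose in both sexes. The falls shared by the sexes were those of Scap, Usf2, Gpd1l, Gpat2 and Mogat2. Mbtps2 and Srebf2 rose and passed in males alone, Gpat3 rose and Insig1 fell in females alone, and these 4 were named after their values were seen. Srebf2, at 0.39, lost its call under 13 of 19 alternatives, among them leaving out any 1 of the 6 male arrays or female dexamethasone array 2 (adjusted p from 0.0528 to 0.132). For the difference in response between the sexes limma called 0 of the 42. An unadjusted p under 0.05 was found for 3 of the 42 and for 1033 of all 19340 genes.

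Insig2, whose product holds the SREBP and SCAP complex in the endoplasmic reticulum, was 3.75, 4.06 and 4.10 in vehicle males and 6.91, 6.88 and 6.49 in dexamethasone males. Vehicle females had 3.23, 3.90 and 3.07 and dexamethasone females 6.23, 6.67 and 7.66. The groups were more than 2 log2 units apart in each sex. Insig2 rose 6.92-fold in males (log2 difference 2.79, SE 0.34, adjusted p = 0.000526) and 11.0-fold in females (3.45, SE 0.34, adjusted p = 0.000317). Female dexamethasone array 3, the lowest of its group for Srebf1, was the highest for Insig2. Male dexamethasone array 3 was the lowest of its group for Srebf1 (3.25) and for Insig2 (6.49). A relation between the genes was not tested. Insig1, the sterol-induced relative of Insig2 and itself an SREBP target, fell by 1.86 in females (SE 0.30, adjusted p = 0.00348). In males its difference was -0.67 (adjusted p = 0.131), and the difference between the sexes was not past the threshold (adjusted p = 0.806). Scap, the escort protein of SREBP, fell by 0.65 in males (adjusted p = 0.0243) and by 0.82 in females (adjusted p = 0.013). The Scap call was lost in males without male vehicle array 1 or 3 or male dexamethasone array 1 or 3, and in females without female vehicle array 1, with adjusted p of at most 0.098. With the slide as a block the adjusted p of Scap in males was 0.0607. Usf2, an E-box binding factor, fell by 0.99 in males (adjusted p = 0.00368) and by 0.62 in females (adjusted p = 0.0441). The female Usf2 call was lost without any 1 of the 12 arrays other than female vehicle array 2 and female dexamethasone array 3 (adjusted p from 0.0569 to 0.131).

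In the glycerolipid arm, Lpin1, a phosphatidate phosphatase, was 2.01, 3.78 and 5.09 in vehicle males and 6.99, 7.14 and 6.96 in dexamethasone males. Female arrays read 2.92, 2.98 and 2.44 under vehicle and 6.13, 6.41 and 7.06 under dexamethasone. The vehicle males were spread over 3 log2 units, yet no vehicle array reached a dexamethasone array. Lpin1 rose 10.6-fold in males (log2 difference 3.40, SE 0.59, adjusted p = 0.00293) and 13.5-fold in females (3.75, SE 0.59, adjusted p = 0.00327). The log2 difference of Lpin1 in males was 2.60 without male vehicle array 1 and 4.13 without male vehicle array 3. Gpat4, the microsomal glycerol phosphate acyltransferase, rose by 1.42 in males (adjusted p = 0.00156) and by 1.82 in females (adjusted p = 0.000813). Gpat3 rose by 1.59 in females (adjusted p = 0.0026), and its difference in males was 0.59 (adjusted p = 0.103). Mogat2, another monoacylglycerol acyltransferase, fell by 2.35 in males (adjusted p = 0.00186) and by 1.51 in females (adjusted p = 0.0232). The female Mogat2 call was lost without female vehicle array 2 or 3 (adjusted p of 0.0637 and 0.0737) and with the slide as a block (0.0511). With normexp background correction Mogat2 differed by -0.92 in males and -0.49 in females, neither passing (adjusted p of 0.283 and 0.462). Gpat2 fell by 0.88 and 0.93, and Gpd1l, related to glycerol phosphate dehydrogenase, by 1.02 and 0.86, in males and females. Gpat2 passed in neither sex with normexp (adjusted p of 0.18 and 0.189), and Gpd1l did not pass in females with normexp or with its probes averaged (adjusted p of 0.0766 and 0.067).

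**Figure D4:**
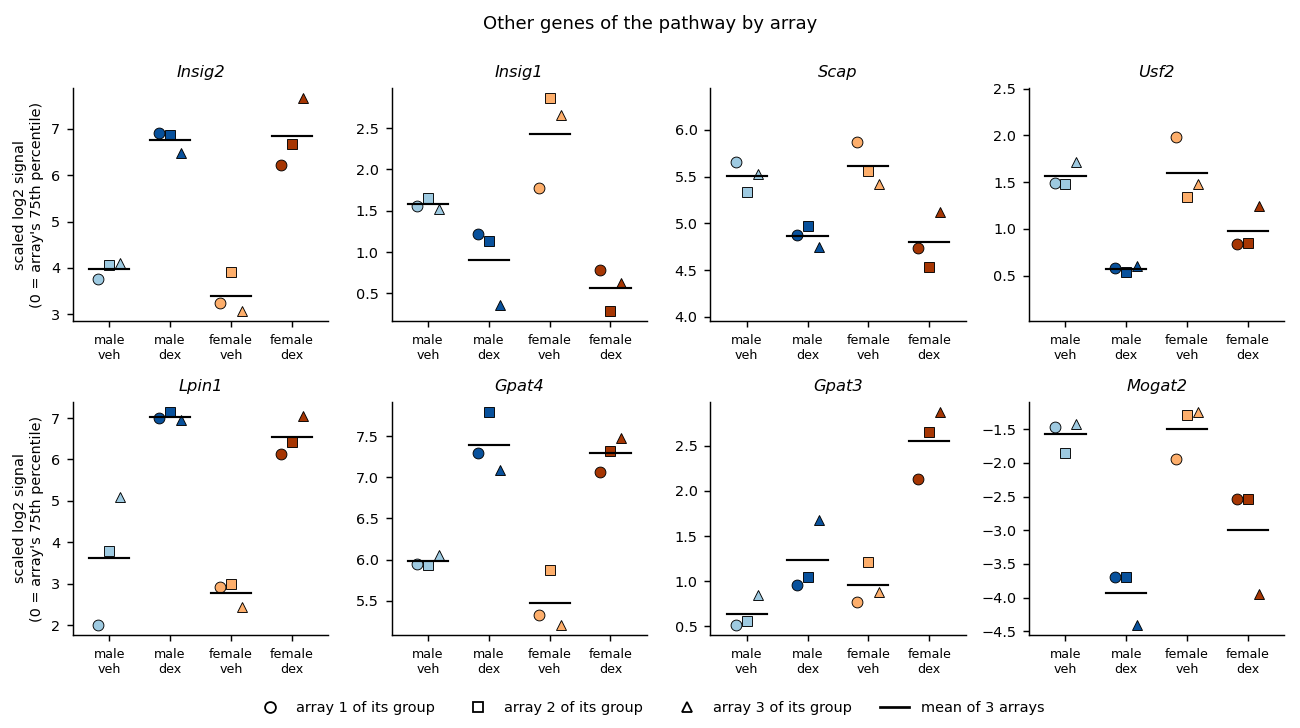
Scaled log2 signal (vertical axis, 0 is the array's 75th percentile) of 8 other genes of the pathway on each of the 12 arrays; symbols give the array's number within its group and the bar the mean of 3 arrays. Insig2, Lpin1 and Gpat4 are higher under dexamethasone in both sexes, and Scap, Usf2 and Mogat2 are lower.

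On the list for the remaining enzymes of synthesis, elongation and desaturation, limma called none of the 16 tested genes in either sex. An unadjusted p under 0.05 was found for 5 of the 16 in males and 3 in females. Of all 19340 genes, 6845 were under it in males and 5478 in females. Between the sexes 4 of the 42 pathway genes passed under each treatment (9.52%, against 1.97% of all genes under vehicle and 5.81% under dexamethasone), and they were named after their values were seen. Elovl7 and Acss3 were higher in females under both treatments, by 0.95 and 1.23 under vehicle (adjusted p of 0.0181 and 0.0141). Acsl6 was lower in females under both (adjusted p of 0.0014 under vehicle), with a probe well above background on only 4 of the 12 arrays. Such a probe was kept through the group where it was high, so the filter itself favoured a lower level elsewhere. Acsl6 is nevertheless included in both counts of 4, and its difference was taken against values near background. Gpd1 was lower in females under vehicle at -0.91 (adjusted p = 0.024), and Gpat3 was higher under dexamethasone at 1.32 (adjusted p = 0.0112). None of these sex calls stood with normexp background correction. Under vehicle, those of Elovl7 and Gpd1 were lost without male vehicle array 2 or 3 or female vehicle array 2 or 3, and that of Gpd1 also without male vehicle array 1 (adjusted p up to 0.123). The Acss3 call was lost without male vehicle array 2 or 3 or female vehicle array 3. Elovl7, Acss3 and Gpat3 did not pass under dexamethasone with the slide as a block (adjusted p of 0.0561, 0.108 and 0.0955). Elovl7 passed under neither treatment with its probes averaged, and Gpd1 did not pass with quantile normalization (adjusted p = 0.0523).

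Markers of some liver cell types also moved with treatment. Among all genes tested, 10.4% rose and 12.1% fell in males, and 6.79% rose and 6.88% fell in females. Of the 6 T and NK cell genes, 1 fell in males and 1 rose in females. Of the 5 endothelial genes, 1 rose and 1 fell in males, and 1 rose in females. Of the 4 cholangiocyte genes, 1 rose in males and 0 passed in females. No neutrophil gene (3 tested) or pancreatic acinar gene (1 tested) passed in either sex. The hepatocyte list held Alb, Apoa1, Ttr, Serpina1c, Tat, Cps1 and Hnf4a. The summed level of this list (log2 of the summed scaled signal) was 9.83 to 10.02 in vehicle males and 10.60 to 10.83 in dexamethasone males. In males 5 of its 6 tested genes rose. In females the summed level was 9.76 to 9.93 and 10.34 to 10.60, with 4 of 6 genes higher. For B cells it was -0.31 to 0.35 in vehicle males and -2.13 to -1.39 in dexamethasone males, and in females -0.33 to 0.97 and -1.73 to -0.65, with 3 of 5 genes lower in each sex. Of the 5 stellate cell genes 3 fell in males and 0 in females (limma, with 1 under an unadjusted p of 0.05). For adipocytes, the defining markers Adipoq and Retn were well above background on at most 4 of 12 arrays and Lep on 0. Of the 4 adipocyte genes tested, Fabp4 and Cidec, which lipid-laden hepatocytes can also express, rose in both sexes, and Plin1 and Cfd did not pass. Between the sexes Cfd and Cidec were lower in females under both treatments, by log2 differences of -8.58 and -2.41 under vehicle (adjusted p of 0.0101 and 0.00062). That is 50% of the 4 under each treatment, where 1.97% of all genes were called under vehicle and 5.81% under dexamethasone. Of the 4, 2 were well above background on all 12 arrays, and a probe could be kept through a group where it was high. The summed level of this list was 3.93 to 5.38 in vehicle males and 4.64 to 5.65 in dexamethasone males, and 2.91 to 3.02 and 3.87 to 4.85 in females. The summed level of the 7 Kupffer cell and macrophage genes was 5.78 to 6.50 in vehicle males and 5.23 to 5.67 in dexamethasone males, and 6.43 to 7.04 and 5.83 to 6.79 in females. All 7 had fitted differences below 0 in both sexes, of which 1 passed in males and 0 in females (limma, with 5 and 2 under an unadjusted p of 0.05). All 7 were fitted higher in females than in males under dexamethasone, and 1 of them passed (7 under an unadjusted p of 0.05). Over all 19340 genes the unadjusted p was under 0.05 for 6845 in males, 5478 in females and 4287 between the sexes under dexamethasone. The part of these markers in the results for lipid synthesis, between treatments and between sexes, was not tested. In whole liver, a change in the number of cells of a type and a change in RNA per cell cannot be told apart, for rises and for falls.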

How the data were processed

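Liver RNA of 12 mice was labelled and each sample hybridised to 1 one-colour Agilent array (500 ng RNA, per the labels' protocols). The scanner files were deposited with intensity values as processed by Agilent Feature Extraction 9.5 (per the submitters' processing notes): background-subtracted spot signals, not yet scaled between arrays. Probe coordinates in the files are of build mm7, for which no annotation was used here. The deposited table of the series holds the same processed intensity values as the scanner files on every spot and was used only for that check.

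Control and outlier spots were left out, spots of a probe averaged, the log2 signal reduced by the array's 75th percentile, and probes kept where well above background on all 3 arrays of a group (28842 probes). The brightest probe stood for a gene. Names came from transcript accessions (22951 probes), symbols (6659), synonyms (3109) or the file (8455). The 4 group means over 12 arrays were fitted with limma 3.58.1 (R 4.3.3), 5 contrasts were tested with eBayes and Benjamini-Hochberg adjustment over 19340 genes, and the script was tested on simulated data. Replicates are separate animals, per the labels. All 33 genes are named; those past 0.05 are given on every array, and other pathway genes are named where past 0.05 in both sexes. The members, lists and tests were chosen with earlier results of these data known. Alternatives were quantile normalization, normexp background correction, the filter on dim probes, the mean of probes, slide and replicate number as blocks, and each array left out; fitting each probe on its own was added after the data were seen.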

Additional observations from a re-analysis of the deposited data

How the results depend on the processing

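Over 19 alternatives no call on the 33 genes or on the 42 other pathway genes reversed its direction (counted over calls and alternatives, 879 kept and 164 lost the call). With normexp background correction, which moved the median of all genes to 0.264 in males and 0.239 in females, 5 of the 33 genes were called in males (0 higher, 5 lower) and 5 in females, and 1 between the sexes under dexamethasone. The genes called were then 904 in males, 538 in females, 0 for the difference between the sexes in response, 90 between the sexes under vehicle and 59 under dexamethasone. Without the filter on dim probes 7 of the 33 were called in males, and 2278 genes for the difference in response and 4233 between the sexes under dexamethasone, where the median of all genes was -0.145. The single gene called for the difference in response became 0 when only probes detected on all 12 arrays were kept and when the probes of a gene were averaged. With the slide as a block, 244 genes and 1 of the 33 were called between the sexes under dexamethasone. With the replicate block, 244 genes were called between the sexes under vehicle and 703, with 2 of the 33, under dexamethasone; 8 of the 33 were called in males and 8 in females. Arrays sharing a replicate number correlated in their deviations from the group means at -0.216 to 0.326, over 0.1 in 1 of 12 pairs, so the numbers were not treated as pairs. Each array left out in turn gave 7 to 13 of the 33 in males (2319 to 4999 genes; 7 without male vehicle array 1 or 2), 6 to 9 in females (1505 to 2566 genes), 0 to 1 for the difference in response (1 to 31 genes), 2 to 4 between the sexes under vehicle (155 to 437 genes) and 2 to 9 under dexamethasone (459 to 1286 genes). The median of the 33 genes was then -0.507 to -0.237 in males and -0.118 to 0.174 for the difference in response. In each case the cause was not tested. Signals near background limit the dim probes most.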
